A study of Mus musculus with 6 samples.

Results

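Adgrl2, also called latrophilin-2, was read by 8 probe sets, every one in the deposited table that carries Adgrl2 as its single gene symbol. It is 1 of 10366 genes named by single-symbol probe sets among the 14610 probe sets tested. The gene was taken up because 1 of its probe sets lay far higher in the Zeb2-KO-labelled arrays, so every difference between the groups in Adgrl2 below is a description, with no test, and it supports nothing about the direction. The cells were LKS-Slam cells, a bone marrow fraction sorted by flow cytometry that is highly enriched for hematopoietic stem cells. One group came from Zeb2 fl/fl Mx1-Cre mice, listed as Zeb2Δ/ΔMx1-Cre after induction, in which an interferon-driven Cre recombinase is meant to delete Zeb2, a zinc-finger repressor. The other group came from C57Bl/6 WT mice. Both groups were given pIC, which induces interferon, when 6 weeks old, and their marrow was taken after 8 more weeks, when they were 14 weeks old. There were 3 arrays per group, named as biological replicates, each from its own bone marrow sample. The groups are called Zeb2-KO-labelled and WT arrays below. Mx1-Cre acts in many cell types that respond to interferon, not in stem cells alone.

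Latrophilins are adhesion G-protein coupled receptors. They carry a long extracellular part that binds teneurins and FLRT proteins on neighbouring cells, a domain in which the receptor cuts itself, and a membrane-spanning part that signals through G proteins. They are known best for their part in forming synapses, and Adgrl2 is also expressed outside the nervous system.

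All 8 probe sets cite 1 and the same RefSeq transcript in the platform annotation, and 2 of them cite a further cDNA each. The annotation does not say which part of the transcript a probe set covers, so the probe sets are given in the order of their identifiers only. The RefSeq table of starts holds 1 start for the gene, at a start codon inside the gene's span, and 51 transcript models are listed for it. The first 50 bases from that start are shown to identify the start that the table holds, on GRCm38.p6 at chr3:148954586-148954635, minus strand, 5′ to 3′, with the start codon in capitals.
Adgrl2: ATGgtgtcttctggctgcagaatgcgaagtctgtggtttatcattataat

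Median intensities of the 6 arrays ran from 94.3 to 99.2 over the tested probe sets. WT replicate 1 stood apart, with a mean correlation of 0.841 with the other arrays, against 0.886 to 0.908 for the rest. Zeb2-KO replicate 1 and WT replicate 1 had raised signal from 3 Y-linked genes (mean log2 intensity 6.17 and 5.13, against 3.82 to 4.03 in the other 4 arrays), and the labels give no sex. Zeb2 itself went against the label, at log2 7.79, 9.13 and 8.96 in the Zeb2-KO-labelled arrays and 6.58, 7.51 and 7.34 in WT (limma difference 1.48, SE 0.40, adjusted p = 0.581). Its single probe set may lie outside the deleted part, which the labels do not describe, and then checks nothing. Directions below are therefore those of the labels.

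Adgrl2 lay higher in the Zeb2-KO-labelled arrays in 6 of its 8 probe sets, a direction taken by 44.6% of all tested probe sets, and in 4 of the 8 the groups did not overlap, all higher. Over all tested probe sets 13.2% had no overlap between groups, 6.90% with the Zeb2-KO-labelled arrays on the higher side. Because the gene was chosen from this contrast, nothing is read from the gap between these shares. The median difference over the 8 probe sets was 1.89 on the log2 scale, where the median over all tested probe sets was -0.089. Of the 8 differences 5 were at least 3-fold, a size reached upward by 0.589% of all tested probe sets. The other 3 probe sets of the gene had smaller differences, of 0.72, -0.0037 and -0.20, so the 8 did not read alike. Scatter within groups was large in 10502772 of these 3, but also in 10502776, 10502778 and 10502780 of the 5.

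**Figure D1:**
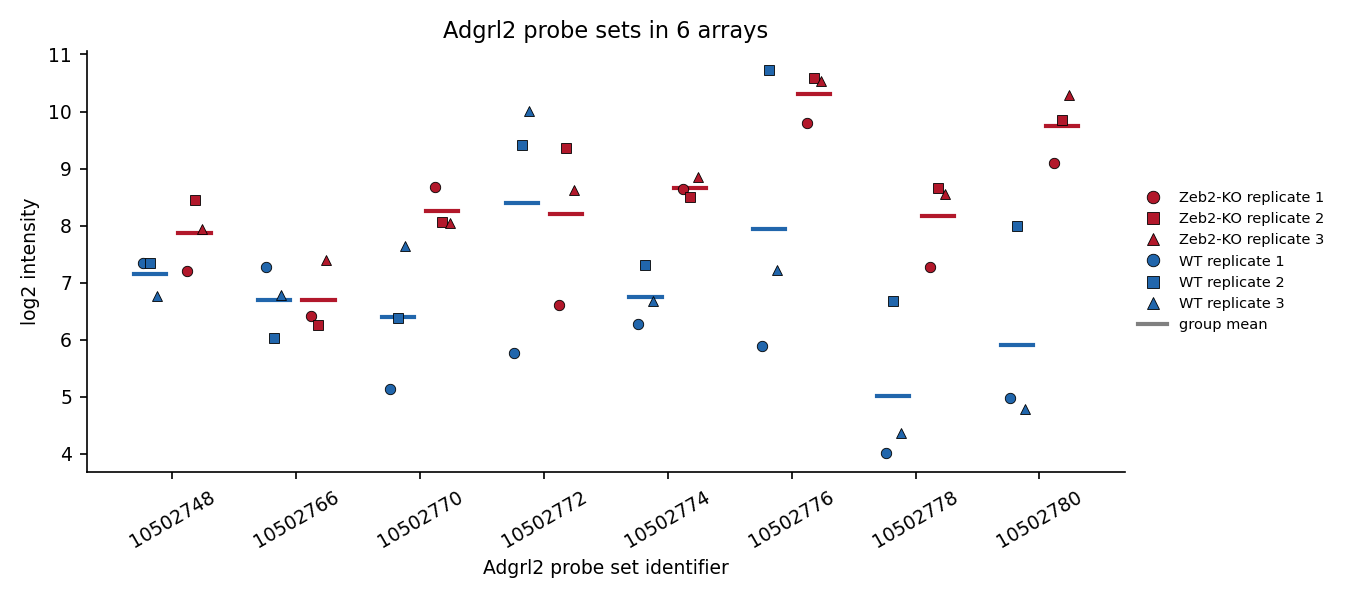
Log2 intensity (y axis) of the 8 Adgrl2 probe sets (x axis, in order of identifier) in the 6 arrays, with red points for Zeb2-KO-labelled arrays, blue for WT, a shape for each replicate number and a line at each group mean of 3 arrays. The groups are apart in 10502770, 10502774, 10502778 and 10502780 and overlap in the other 4, and levels of different probe sets cannot be set against each other.

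Probe set 10502774 had the least scatter, with a pooled SD within groups of 0.39. Its log2 intensities were 8.64, 8.50 and 8.84 in the Zeb2-KO-labelled arrays and 6.27, 7.30 and 6.68 in the WT arrays, each in the order of replicates 1 to 3, as are all triplets below. The lowest Zeb2-KO-labelled array stood 1.20 above the highest WT array. The group values were 8.66 ± 0.17 and 6.75 ± 0.52 (SD, n = 3). The difference was 1.91 (SE 0.32), or 3.77-fold. Leaving out each array in turn kept the difference between 1.67 and 2.19.

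Probe set 10502780 showed the greatest difference of the 8. It read 9.10, 9.85 and 10.30 in the Zeb2-KO-labelled arrays and 4.97, 7.99 and 4.79 in WT. WT replicate 2 was the highest WT array, nearer to the Zeb2-KO-labelled arrays than to the other WT arrays and 1.11 below the lowest of the former. The group values were 9.75 ± 0.60 and 5.91 ± 1.80 (SD, n = 3). The difference was 3.84 (SE 0.71), or 14.3-fold. Without WT replicate 2 it was 4.87, and without WT replicate 3 it was 3.27. WT replicates 1 and 3 had low linear intensities, 31.3 and 27.6. With an offset of 16 added before log2 the difference was 3.42.

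In probe set 10502778 WT replicate 2 was again the highest WT array. It read 7.27, 8.66 and 8.56 in the Zeb2-KO-labelled arrays and 4.01, 6.67 and 4.37 in WT. The groups did not overlap, with a gap of 0.59 between Zeb2-KO replicate 1 and WT replicate 2. The difference was 3.14 (SE 0.63), or 8.84-fold, and 3.97 without WT replicate 2. WT replicates 1 and 3 had low linear intensities, 16.1 and 20.7. With an offset of 16 added before log2 the difference was 2.55.

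Probe set 10502776 repeated the high WT replicate 2 in a stronger form. Its values were 9.79, 10.59 and 10.53 in the Zeb2-KO-labelled arrays and 5.88, 10.73 and 7.21 in WT. WT replicate 2 was the highest of all 6 arrays here, so the groups overlapped. The difference was 2.36 (SE 0.93), or 5.14-fold, with 3.76 without WT replicate 2 and 1.33 without WT replicate 1.

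Probe set 10502770 also had no overlap, but its WT arrays came in another order. It read 8.68, 8.06 and 8.04 in the Zeb2-KO-labelled arrays and 5.13, 6.39 and 7.65 in WT, and here WT replicate 3 was the highest WT array. The gap between the groups was 0.39, and the difference was 1.87 (SE 0.53), or 3.66-fold. After quantile normalization WT replicate 3 (7.79) passed Zeb2-KO replicate 2 (7.77), so that 3 of the 8 probe sets had no overlap. The difference was 2.50 without WT replicate 3 and 1.24 without WT replicate 1.

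Probe set 10502748 showed a small difference with overlap. It read 7.20, 8.45 and 7.94 in the Zeb2-KO-labelled arrays and 7.34, 7.34 and 6.76 in WT. Zeb2-KO replicate 1 lay below WT replicates 1 and 2. The difference was 0.72 (SE 0.36), or 1.65-fold. It was 1.05 without Zeb2-KO replicate 1 but 0.42 when Zeb2-KO replicate 2 was left out, and 0.26 with the interquartile range of each array, described below, as a covariate.

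Probe set 10502766 showed no shift between the group means. It read 6.41, 6.26 and 7.39 in the Zeb2-KO-labelled arrays and 7.28, 6.02 and 6.78 in WT. The difference was -0.0037 (SE 0.41), and it took either sign when an array was left out, from -0.36 to 0.29. The interval that its SE gives does not exclude a difference of the size seen in 10502748.

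Probe set 10502772 set replicate 1 of each group apart from replicates 2 and 3, and did not separate the groups. It read 6.60, 9.36 and 8.63 in the Zeb2-KO-labelled arrays and 5.76, 9.42 and 10.00 in WT. Replicate 1 was the lowest array of both groups, and these are also the arrays with raised Y-linked signal, whose part in this value was not tested. The difference was -0.20 (SE 0.98), -1.51 without WT replicate 1 and 0.61 without WT replicate 3. With both replicate 1 arrays left out, an alternative chosen after the data were seen, it was -0.72 (SE 0.37).

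**Figure D2:**
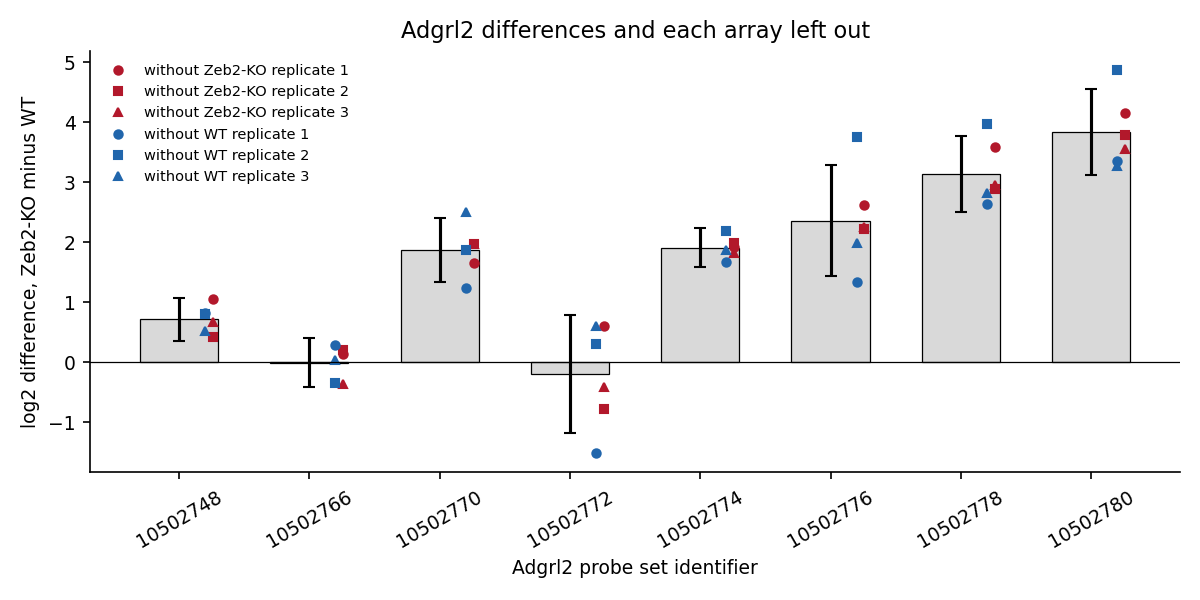
Log2 difference, Zeb2-KO minus WT (y axis), for each Adgrl2 probe set (x axis), with bars for all 6 arrays, error bars for limma's standard error and points for the difference with 1 array left out. The points of 10502774 stay between 1.67 and 2.19, while those of 10502766 and 10502772 fall on both sides of 0.

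The mean over the 8 probe sets gives 1 value per array. It was 7.96, 8.72 and 8.78 in the Zeb2-KO-labelled arrays and 5.83, 7.73 and 6.78 in WT. The groups did not overlap, but the WT arrays spread over a wider range than the Zeb2-KO-labelled arrays, at 6.78 ± 0.95 against 8.49 ± 0.45 (SD, n = 3). WT replicate 1 was the lowest of the 6 arrays in 5 probe sets, WT replicate 3 in 2 and WT replicate 2 in 1, and no Zeb2-KO-labelled array was the lowest in any. The mean difference was 1.71. It was 1.23 without WT replicate 1, the array that stood apart, and 2.18 without WT replicate 2. The arrays also differed in the interquartile range of their log2 values, from 1.59 in WT replicate 1 to 2.40 in Zeb2-KO replicate 2. With that range as a covariate the mean difference was 0.92, with 10502780 at 2.70 (SE 0.88), 10502778 at 1.90 (SE 0.56), 10502774 at 1.68 (SE 0.35), 10502776 at 0.73 (SE 1.09) and 10502772 at -2.09 (SE 1.04).

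Scatter between arrays of 1 group was high for this gene. The pooled SD within groups ran from 0.39 to 1.91 over the 8 probe sets, with a median of 1.04, where the median over all tested probe sets was 0.35. In 4 of the 8 (10502772, 10502776, 10502778 and 10502780) it lay above 0.97, the level that 5% of all tested probe sets exceed. The 3 probe sets with the greatest differences, 10502776, 10502778 and 10502780, were among these 4.

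The last 4 probe sets by identifier, 10502774 to 10502780, ran together across the arrays. This group was picked after its values were seen. Pearson correlations between them ran from 0.82 to 0.99 over 6 arrays, and those of deviations from group means, which leave the contrast out, ran from 0.81 to 0.96. Over all 28 pairs the correlation of deviations had a median of 0.30, with 17 pairs above 0, and a lowest value of -0.66 between 10502766 and 10502776. Probe set 10502766 was negatively correlated with each of the other 7 on both measures. The probe sets share the 6 arrays and the labelled RNA of each, so these are descriptions of the arrays, with no test.

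**Figure D3:**
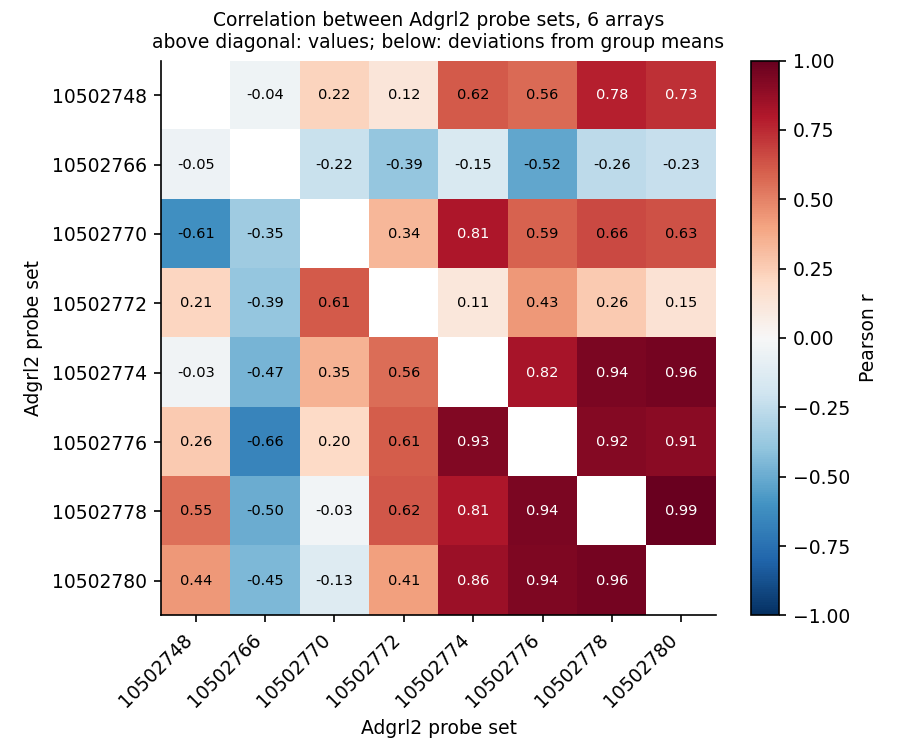
Pearson correlation between Adgrl2 probe sets over 6 arrays, for log2 values above the diagonal and for deviations from group means below it, with red for positive and blue for negative. The lower right corner, 10502774 to 10502780, is positive throughout, and the row and column of 10502766 are negative.

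Few genes are read by so many probe sets. There were 35 genes with at least 5 single-symbol probe sets, together 318 probe sets. The range from lowest to highest difference within a gene had a median of 1.15 over these genes, and that of Adgrl2, 4.03, ranked 2 after the chromatin remodeller gene Chd7 (4.27, over 23 probe sets). The median difference of Adgrl2 also ranked 2, after Cwc22, a splicing factor gene (2.14), and above Ltn1 (0.99). In within-group scatter Adgrl2 ranked 5 of the 35. The ranks by range and by median difference rest on the contrast from which the gene was chosen, and that by scatter rests on the spread within groups. All of them describe Adgrl2, and nothing is read from them. Cspp1 also had a wide range, from -0.96 to 3.04 over 12 probe sets.

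**Figure D4:**
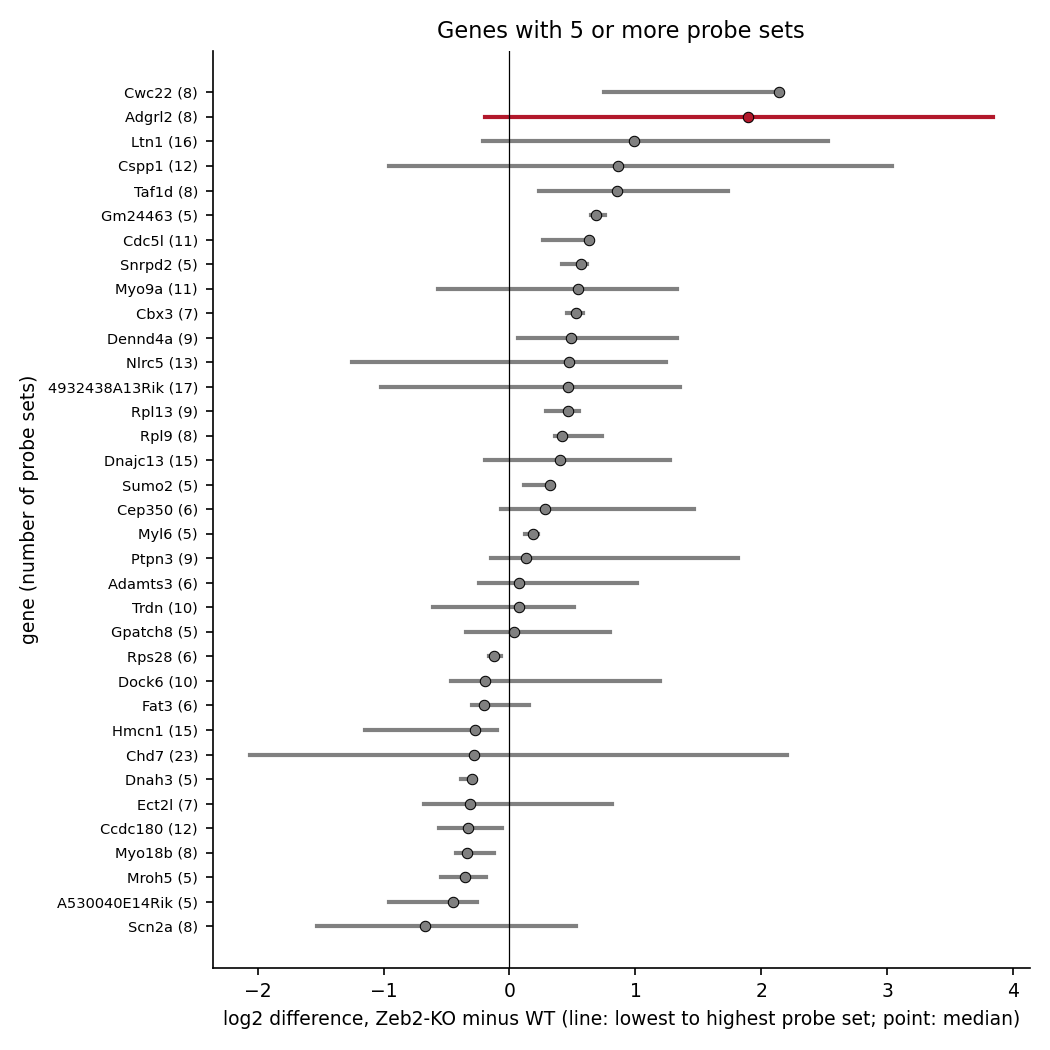
Log2 difference, Zeb2-KO minus WT (x axis), for the 35 genes with 5 or more probe sets (y axis, number of probe sets in brackets, sorted by median), with a line from the lowest to the highest probe set and a point at the median. Adgrl2, in red, runs from -0.20 to 3.84, and among the others Chd7 alone has a longer line.

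The genes whose pattern over the 6 arrays was most like 10502774, among 5784 probe sets of named genes at or above the median level, were Fbxl17, an F-box protein gene (r = 0.994), Agk, a lipid kinase gene (0.987), Rwdd4a (0.982), Gpatch8 (0.981, in 1 of 5 probe sets) and Ccdc77 (0.981). Their differences lay between 0.69 (Agk) and 1.36 (Fbxl17), below that of 10502774. Probe set 10502774 was used because it had the smallest unadjusted limma p of the Adgrl2 probe sets in this contrast. Genes that follow it closely over the 6 arrays must lie higher too, so their direction follows from that choice. By deviations from group means the most like were Araf, a RAF family kinase gene (r = 0.995), Stx12, an endosomal syntaxin gene (0.992), Slc25a37, the mitochondrial iron importer gene (0.991), Zbtb44 (0.989) and Dnajc13, an endosomal co-chaperone gene (0.987, in 1 of 15 probe sets). The lists share no gene, and each holds the highest of 5784 correlations over 6 arrays only, given as a description.

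Of the paralogs of Adgrl2, 1 of 3 was measured. This was Adgrl4, a receptor known from endothelial cells, which read 8.57, 8.995 and 9.60 in the Zeb2-KO-labelled arrays and 9.37, 9.94 and 8.72 in WT. The groups overlapped, and the difference was -0.29 (SE 0.38, limma adjusted p = 0.723). Without WT replicate 2 it was 0.0087 (adjusted p = 0.990). The other latrophilin genes, Adgrl1 and Adgrl3, were not analysed here.

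Of 10 ligand genes 5 were measured, all 5 with a difference below 0 and none past the threshold of an adjusted p of 0.05. Over all tested probe sets 0.0137% passed, and 44.6% had a difference above 0. Flrt2, Flrt3, Tenm3 and Tenm4 were dim, with group means from 4.30 to 5.40, where the median level over all tested probe sets was 6.63. The median difference over all tested probe sets was -0.089, and 0.18 when those under that median level were left out, so dim probe sets lay lower in general. Flrt1, which encodes a membrane protein that binds latrophilins, read 6.93, 6.71 and 6.79 in the Zeb2-KO-labelled arrays and 7.35, 7.63 and 7.35 in WT. These values did not overlap, and the difference was -0.63 (SE 0.27, adjusted p = 0.673). Flrt2 and Flrt3 lay at -0.32 and -0.22, and the teneurin genes Tenm3 and Tenm4 at -0.20 and -0.29. With 1 array left out in turn these 4 kept their sign, with Flrt2 between -0.53 and -0.11, Flrt3 between -0.33 and -0.10, Tenm3 between -0.34 and -0.072 and Tenm4 between -0.35 and -0.16. The values nearest 0 came without WT replicate 1 for Flrt2 and Tenm3 and without Zeb2-KO replicate 2 for Flrt3 and Tenm4. Adjusting for the spread of each array turned the sign of Flrt2, Flrt3 and Tenm3 (0.12, 0.0073 and 0.094).

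Of 26 other adhesion receptor genes 13 were measured, 5 higher and 8 lower, with a median difference of -0.19 and none past the threshold. Adgrg1, also known as Gpr56, a receptor expressed in hematopoietic stem cells, lay highest of them. It read 10.08, 9.99 and 9.70 in the Zeb2-KO-labelled arrays and 8.59, 9.61 and 8.87 in WT, without overlap (difference 0.90, SE 0.33, adjusted p = 0.657). Adgrg3 lay at 0.53 (0.28 without Zeb2-KO replicate 1 and 0.87 without Zeb2-KO replicate 2), Adgra3 at 0.43 (0.17 without Zeb2-KO replicate 2) and Adgrg4 at -0.37, each with overlap between groups.

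Of 50 genes of G proteins and their effectors 24 were measured, 18 higher and 6 lower, with a median difference of 0.14 and none past the threshold. Most of the 24 had means above the median level of 6.63. Over all tested probe sets at or above that level the median difference was 0.18, so this list did not lie above them. Adcy6, an adenylyl cyclase that makes cyclic AMP, read 7.60, 7.79 and 7.75 in the Zeb2-KO-labelled arrays and 6.83, 6.996 and 6.62 in WT. The groups did not overlap, and the difference was 0.90 (SE 0.27, adjusted p = 0.606). Arhgef12, an exchange factor that links G proteins of the Gα12/13 class to RhoA, lay at 0.78, the arrestin gene Arrb2 at 0.65 and Gna15, a G protein α subunit gene of blood cells, at 0.62, all without overlap. Over these 4 lists together, 5 of 43 genes (11.6%) lay higher and 1 (2.33%) lower at an unadjusted p under 0.05, where 5.69% and 1.33% of all tested probe sets did, and 18.6% of the 43 genes had no overlap between groups, where 13.2% of all tested probe sets had none.

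**Figure D5:**
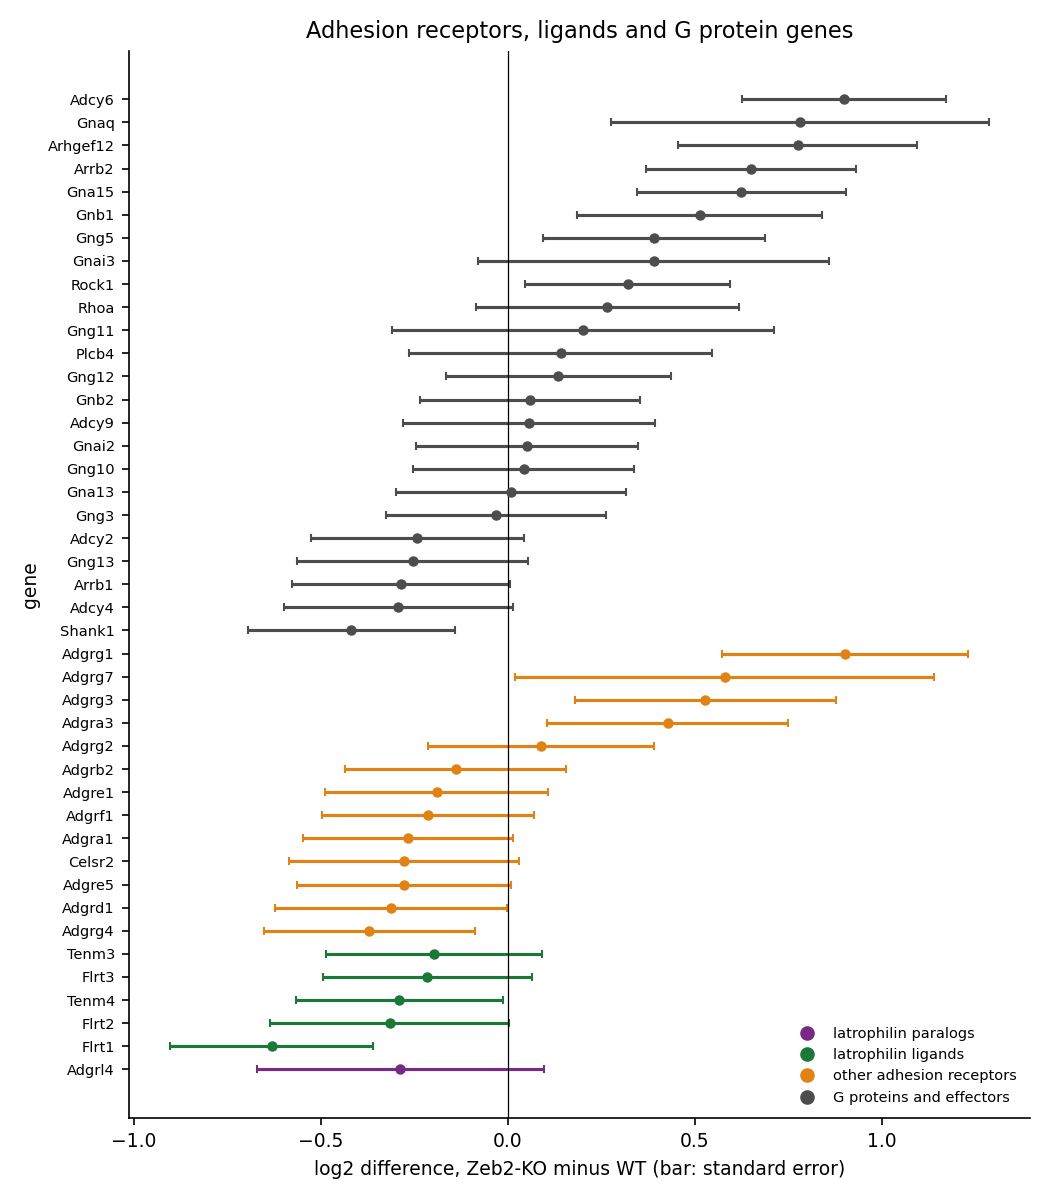
Log2 difference (x axis, Zeb2-KO minus WT), with error bars for limma's standard error, for the 43 measured genes of the 4 lists (y axis), coloured by list. All 5 ligand genes lie below 0 and 18 of 24 genes of G proteins and effectors above 0, where 44.6% of all tested probe sets lie. Most of these 24 genes are above the median level, and tested probe sets at or above that level had a median difference of 0.18. None passed the adjusted threshold.

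Markers of other cells were set beside these values. A mean over the measured markers of a cell type gave 1 level per array, and in 4 of 9 marker lists these levels did not overlap between the groups. Such list means have no share over all probe sets to stand beside them. Of the 98 single marker genes 28.6% had no overlap, against 13.2% of all tested probe sets. Of all tested probe sets 44.6% had a difference above 0, and at an unadjusted p under 0.05 5.69% lay higher and 1.33% lower. The megakaryocyte and platelet level (13 of 21 markers measured) ran from 7.63 to 8.45 in the Zeb2-KO-labelled arrays and from 6.62 to 7.10 in WT, with 11 of 13 markers higher, 7 of them at an unadjusted p under 0.05 and none past the adjusted threshold. Among them the platelet chemokine genes Ppbp and Pf4 lay at 3.28 and 2.21, Cavin2 at 1.52 and Cd9 at 1.02. The erythroid level (8 of 16 measured) ran from 6.96 to 7.48 against 6.32 to 6.62, with 7 of 8 higher, among them the carbonic anhydrase gene Car2 (1.72), Rhag (1.52), Tfrc (0.96) and Aqp1 (0.76). The B lymphoid level (15 of 17 measured) ran from 6.41 to 7.01 against 7.07 to 7.82, with all 15 measured markers lower, among them Ms4a1 (-2.06), Bank1 (-1.63), Cd22 (-0.91) and Pou2af1 (-0.87). The stromal level (12 of 20 measured) ran from 5.74 to 6.127 against 6.130 to 6.48, so the groups were barely apart. Of the 12 markers 11 were lower, among them Sparc (-0.99), Bgn (-0.94), Dcn (-0.60) and Col3a1 (-0.42). Most stromal markers, with Bgn, Dcn and Col3a1 among them, had means over the arrays under the median level of 6.63. Dim probe sets lay lower in general. Single arrays carried part of some of these values, with Cd9 at 0.62 and Col3a1 at -0.25 without Zeb2-KO replicate 2, Sparc at -0.54 and Dcn at -0.38 without WT replicate 3, and Aqp1 at 0.50 without WT replicate 2.

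Most endothelial markers had a difference below 0, and none passed the adjusted threshold. Of 20 such markers 10 were measured, 9 of them lower, with a median difference of -0.28, where that over all tested probe sets was -0.089. Flt1, Flt4, Plvap, Sox17, Mmrn2, Lyve1 and Emcn had group means from 5.11 to 6.16, under the median level of 6.63. Of these Emcn alone was higher, and dim probe sets lay lower in general. The endothelial level ran from 5.90 to 6.20 in the Zeb2-KO-labelled arrays and from 6.14 to 6.39 in WT, with overlap. Emcn lay at 0.48 (0.29 without WT replicate 3 and 0.76 without WT replicate 2), Sox18 at -0.54, Flt4 at -0.41 (from -0.63 when Zeb2-KO replicate 1 was left out to -0.24 when Zeb2-KO replicate 3 was) and Plvap at -0.35 (-0.19 without WT replicate 1). The defining markers Cdh5 and Kdr were not analysed here.

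The levels of the other lists overlapped between groups. The median difference was -0.37 for monocyte and dendritic cell markers (12 of 15 measured, 2 higher and 10 lower). Cd74 was at -0.98 and Ctss at -1.12, and leaving out Zeb2-KO replicate 2 brought Ctss to -0.64. For T and NK cell markers (7 of 16 measured, 2 higher and 5 lower) the median difference was -0.22. Cd8b1 (-0.31), Cd3e (-0.28) and Zap70 (-0.22) were among the lower markers, while Nkg7 was raised (1.12, and 0.60 without Zeb2-KO replicate 2). The measured T and NK cell markers other than Nkg7 had means over the arrays under the median level of 6.63. Granulocyte markers (6 of 12 measured, 3 higher and 3 lower) had a median difference of 0.051. Mpo fell from 0.88 to 0.56 once Zeb2-KO replicate 3 was dropped, and S100a9 from 1.42 to 0.42 once Zeb2-KO replicate 1 was. The lower markers were Mmp9 (-0.19, but 0.027 without Zeb2-KO replicate 3), Elane (-0.16) and S100a8 (-0.15). The median difference was 0.0028 for stem cell and gate markers (15 of 19 measured), of which 8 lay higher and 7 lower. Slamf1, the SLAM antigen CD150, lay at 1.30 (0.56 without WT replicate 1), Mllt3 at 0.86, Flt3 at 0.69 (1.05 without Zeb2-KO replicate 1) and Cd48, usually absent from stem cells, at -1.02 (-0.65 without Zeb2-KO replicate 3). Over all marker lists 0 of 98 genes passed the adjusted threshold with limma, and 26.5% had an unadjusted p under 0.05, against 7.02% of all tested probe sets. No marker was listed at 0, and the values carry no detection call, so absence could not be judged. The part of these cell types in the Adgrl2 values was not tested. In bulk samples fewer cells of a type and less RNA per cell cannot be told apart.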

How the data were processed

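Total RNA of 6 sorted cell samples was amplified and hybridised to Affymetrix arrays, 1 per sample. The deposited intensity values are linear, as judged from their range. RMA, which corrects background, normalizes and summarises probes, is named per the submitters' processing notes, with neither its version nor a later scaling stated. Over the tested probe sets the arrays still differed in log2 interquartile range, from 1.59 to 2.40, so their spread had not been made equal there. Log2 was taken. Groups come from the titles. Probe sets numbered below the first annotated one (5610) were left out. Of the 14610 others, 11229 carry 1 gene symbol, 766 several and 2615 none.

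All 14610 were fitted in R 4.3.3 by lmFit and eBayes of limma 3.58.1 (4 residual and 6.87 prior degrees of freedom, Benjamini-Hochberg over all, threshold 0.05), a procedure tested on simulated data. Differences are Zeb2-KO-labelled minus WT, and SE is limma's moderated standard error. Lists use 1 probe set per gene, that with the highest mean, and 141 of 245 symbols were measured. Members and lists were chosen with earlier results of these data known. Named are all Adgrl2 probe sets, Zeb2, all measured paralogs and ligands, up to 4 members with the smallest p of each other list, and the 5 genes most like 10502774 by each correlation. Any other gene was picked with its values in view. Alternatives were another normalization or centring, a filter on dim probe sets, other variance priors, array weights, the array spread as a covariate, the replicate number as a block, the low-numbered probe sets included, an offset of 16, all probe sets per gene and each array left out. Precision is limited by 3 arrays per group, and p-values measure the spread between these samples.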

Additional observations from a re-analysis of the deposited data

How the results depend on the processing

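The mean difference over the 8 Adgrl2 probe sets (1.71) moved by less than the spread between replicates with another normalization, centring, variance prior, array weights or offset, and ran from 1.23 to 2.18 with 1 array left out. With the array spread as a covariate it was 0.92. The replicate block left it at 1.71, with the SE of 10502774 at 0.28 and that of 10502772 at 0.46, against 0.98 without the block. Deviations of same-numbered arrays correlated at 0.36, 0.41 and 0.047. Differently numbered arrays were not compared in this way, so whether the numbers pair the samples was not settled. With the block 0 of all tested probe sets passed in limma (1416 higher and 1179 lower at an unadjusted p under 0.05), against 2 without it (831 higher and 194 lower). Of 135 values of single Adgrl2 probe sets under these settings, 134 moved by less than the spread between replicates, and 10 changed sign, all in 10502766 or 10502772. That spread was wide, so the 134 hold large moves. With the array spread as a covariate 10502772 was at -2.09, against -0.20, and 10502776 at 0.73, against 2.36. The 1 that moved by more was 10502778, at 1.90 with that covariate, against 3.14. With the filter on dim probe sets 10502778 was left out, so that setting gives no mean. With array weights 6.69% of all tested probe sets passed, and so did 2 genes (4.65%) of the receptor, ligand and G protein lists (Adcy6 and Arrb2) and 22 (22.4%) of the marker lists, where 0 passed in the fit without weights, and Adgrl4 reversed to 0.46. With the array spread as a covariate Flrt2 (0.12), Flrt3 (0.0073) and Tenm3 (0.094) reversed. With 1 array left out the marker lists had from 0 to 1 gene past the threshold, namely Pf4 when WT replicate 1 was dropped (2.83, adjusted p = 0.0300) and Ppbp when Zeb2-KO replicate 1 was dropped (4.26, adjusted p = 0.00806), and Adgrl4 ran from -0.60 to 0.0087. The dim filter moved the median difference of all tested probe sets from -0.089 to 0.18.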
